A study of Mus musculus with 22 samples.

Results

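Mouse lung epithelium at 6 months was compared between animals carrying altered alleles of both NANCI and Nkx2.1 and animals carrying an altered allele of Nkx2.1 alone. The 7 libraries were taken by their genotype labels out of 22 in the series. Double, the group with both alleles, held 4 libraries of genotype NANCI-CreERT2:RFP/+:Nkx2.1-GFP/+, and was set against Nkx, 3 libraries of genotype Nkx2.1-GFP/+. All 7 therefore carried 1 Nkx2.1-GFP allele, and the labelled difference between the groups was 1 NANCI-CreERT2:RFP allele. At the same age 3 WT libraries (NANCI-+/+) entered the estimate of the spread and serve as context. The gate of the flow sort was EpCAM+ (an epithelial surface protein), CD45− (a leukocyte protein) and CD31− (an endothelial protein). Nothing in the labels ties a replicate to an animal of its own; the p-values therefore cover only the spread among these libraries, and that spread may be technical. Which part of either gene the alleles replace, and whether tamoxifen, the drug that activates CreERT2, was given, is not stated in the sources used here.

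NKX2-1 is a homeodomain protein of lung and thyroid epithelium that is needed to form both from the foregut, and it binds the promoters of surfactant and secretoglobin genes. NANCI is a long noncoding RNA transcribed next to Nkx2-1 and is known to promote its expression. In mouse lung, loss of NKX2-1 is known to let genes of the stomach and gut, other tissues of foregut and midgut endoderm, come on. The study's title asks how the gene pair holds Nkx2-1 expression steady. NANCI itself was not analysed here.

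Double libraries had less RNA of alveolar type 2 (AT2), alveolar type 1 (AT1) and ciliated cell genes than Nkx libraries, and more of goblet, stomach and gut and cell cycle genes. Napsa, a protease that processes surfactant protein B, was 0.207 times its Nkx level in Double, and Ager, an AT1 membrane receptor, 0.217 times. Muc5b, a gel-forming airway mucin, was 14.6-fold higher in Double, and Hnf4a, which drives gut and liver genes, 19.8-fold higher. Endothelial and mesenchymal genes were lower in Double as well. In bulk RNA, fewer cells of a type and less RNA per cell cannot be told apart. Nkx2-1 RNA did not pass the test between the groups.

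Each library is a column of log2 expression values for 15958 genes, which were on a shared scale within the age: all 6-month libraries reached the same highest value of 21.19 and had medians of 9.58 to 9.59. Read totals are unknown, and no scaling by gene length is stated. Ranks and sums of values across genes may therefore not follow the amount of RNA. The lowest value in a library was held by 4 to 161 genes in Double and by 12 to 201 in Nkx, and was read as no reads, which is inferred. Pearson correlations across genes were 0.929 to 0.965 within Double, 0.958 to 0.977 within Nkx and 0.897 to 0.929 between the groups. On the first principal component of the 7 libraries, with 50% of the variance, Double lay at 24.2 to 59.9 and Nkx at −66.1 to −58.5. By Xist and Y-linked genes all 4 Double libraries and Nkx replicates 1 and 2 were of female pattern, and Nkx replicate 3 was of male pattern, so counts are also given between the female libraries (4 against 2).

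Nkx2-1 (ENSMUSG00000001496; GRCm38 chromosome 12, 56531958 to 56536908, minus strand) had log2 expression of 13.75, 13.97, 14.43 and 13.96 in Double libraries, against 13.96, 13.77 and 13.85 in Nkx libraries. The groups overlapped, and Double replicate 3 was the highest of the 7. The difference was 0.17 ± 0.16 (log2 fold change ± SE; limma adjusted p = 0.498), and an exact permutation test over the 7 libraries gave p = 0.514 (two-sided, 35 groupings, smallest possible 0.0286). In WT libraries Nkx2-1 stood at 14.17, 14.55 and 14.40. Both groups carry the GFP allele.

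Of 13 measured genes in the list around Nkx2-1, 1 rose and 1 fell in Double (15.4% passed, beside 21.7% of all genes). Nkx2-9, a homeobox gene beside Nkx2-1, stood at 7.03, 6.68, 7.91 and 6.66 in Double libraries, against 6.51, 5.15 and 4.52 in Nkx libraries. Every Double library lay above every Nkx library, and the difference of 1.68 ± 0.53 passed narrowly (adjusted p = 0.0425). It did not pass without any 1 of Nkx replicates 2 and 3, Double replicates 1, 3 and 4 or WT replicates 2 and 3 (1.24 to 1.81, adjusted p = 0.0522 to 0.163). Over all 24 alternative fits Nkx2-9 did not pass in 15. Among these were the fit with a sex covariate and that of female libraries alone (1.24). Clec14a, an endothelial receptor, fell by 2.79 ± 0.36 on the log2 scale (adjusted p = 0.000431). Foxa1, a pioneer factor of endoderm, differed by 0.29 ± 0.14 (adjusted p = 0.166), and its neighbour Mbip had a difference of 0.06 ± 0.21 (adjusted p = 0.868). Within 10 Mb of Nkx2-1, 5 of 51 tested genes passed (9.8%), and on single chromosomes 18.7% to 24.3% of genes passed.

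Esr1, which encodes estrogen receptor alpha, was looked at because CreERT2 contains a mutated ligand-binding domain of that receptor, and was named after its values were seen. Esr1 (ENSMUSG00000019768; GRCm38 chromosome 10, 4611593 to 5005614, plus strand) stood at 8.35, 8.41, 8.50 and 8.66 in Double libraries, against 5.15, 5.52 and 6.40 in Nkx libraries. All 4 Double libraries were higher, by 2.79 ± 0.41 (adjusted p = 0.00087), and WT libraries stood at 6.62, 4.95 and 5.95. In E18.5 libraries it stood at 6.89, 6.64 and 5.75 in Double and at 7.21, 7.55 and 6.6 in animals homozygous for the NANCI-CreERT2:RFP allele, against 4.74, 4.45 and 3.81 in Nkx. Esr1 was thus higher in each library labelled with the allele than in any Nkx library of its age. Whether reads from the allele were counted at Esr1 was not tested.

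In all, 3460 of 15958 genes passed in Double against Nkx (21.7%): 1629 rose (10.2%) and 1831 fell (11.5%). The counts given for each gene list are to be read beside these shares. At least 1 log2 unit of change was reached by 720 genes that rose and 1126 that fell, and at least 2 by 248 and 338. The median log2 fold change over all genes was 0.03. The groups did not overlap in 5077 genes (31.8%), 3306 of them among those that passed. Without Nkx replicate 1 the count was 2204 (1002 rose and 1202 fell), without Nkx replicate 2 1083 genes rose, and between female libraries alone 1998 passed (925 rose and 1073 fell). No gene that passed changed its sign in any of 24 alternative fits. Where the groups do not overlap, leaving out a library cannot change the sign, so this adds little for those 3306 genes.

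**Figure D1:**
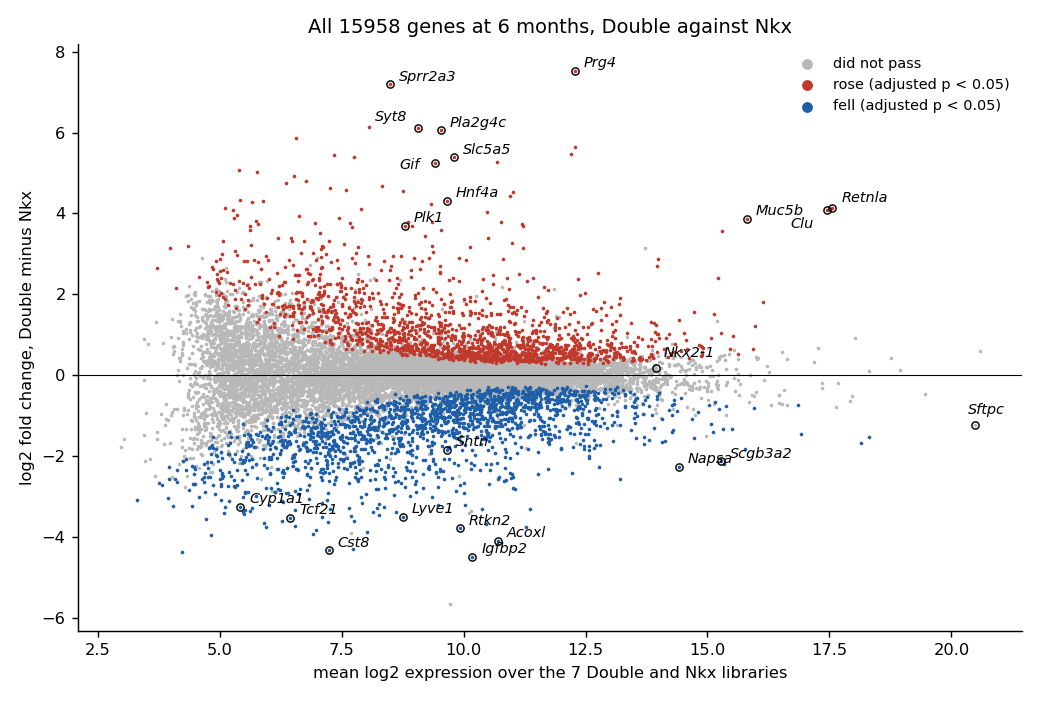
Log2 fold change of Double minus Nkx for each of 15958 genes (y axis) by its mean log2 expression over the 7 libraries (x axis); genes that rose are red, genes that fell blue, and ringed genes are named in the text. Prg4 lies highest among the named genes, at 7.53, and Igfbp2 lowest, at −4.50.

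Among the 12 largest increases, Prg4 (ENSMUSG00000006014; GRCm38 chromosome 1, 150449412 to 150466165, minus strand), which encodes the lubricant proteoglycan lubricin, stood at 15.73, 14.67, 15.15 and 16.47 in Double libraries, against 7.66, 7.64 and 8.61 in Nkx libraries. The groups were far apart, by 7.53 ± 0.49 or 185-fold (adjusted p = 1e-05). Syt8, of the synaptotagmin family of membrane-traffic proteins, stood at 12.64, 11.38, 11.10 and 11.61 in Double libraries, against 5.67, 6.52 and 4.52 in Nkx libraries. It rose by 6.11 ± 0.60 (adjusted p = 0.000123). Pla2g4c, a cytosolic phospholipase, rose by 6.06 ± 0.35 and was also among the 5 smallest p-values (adjusted p = 8.02e-06). Sprr2a3, a cornified-envelope protein, rose by 7.20 ± 0.89 and Chil4, a chitinase-like lectin, by 6.14 ± 0.81; both have near-identical neighbours with which reads may be shared, so their own levels are uncertain. The 12 also held Spink1, a protease inhibitor of pancreas and gut (5.86 ± 0.61, 1 Nkx library at its lowest value), Dmbt1, a mucosal scavenger protein (5.65 ± 0.75), Apoa1 (5.43 ± 0.77, 1 Nkx library at its lowest value), the surface protein gene Psca (5.27 ± 1.07) and Gif, gastric intrinsic factor (5.24 ± 0.57).

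Slc5a5, the sodium-iodide symporter of thyroid and stomach, stood at 13.09, 11.73, 11.02 and 12.64 in Double libraries, against 6.88, 6.72 and 6.60 in Nkx libraries. It rose by 5.39 ± 0.48 (adjusted p = 6.43e-05). Of 10 measured thyroid genes 4 rose and 0 fell; the others were Iyd, an iodotyrosine deiodinase (1.59 ± 0.24), the oxidase gene Duox2 (1.70 ± 0.53) and the anion exchanger gene Slc26a4 (1.55 ± 0.46). Duox2 and Slc26a4 did not pass without Nkx replicate 1 (adjusted p = 0.164 for Duox2 and 0.103 for Slc26a4) or without Double replicate 1 or 2 (0.0819 and 0.0834 for Duox2, 0.0584 and 0.0683 for Slc26a4); Duox2 also did not pass without WT replicate 2, Nkx replicate 2 or Double replicate 4, nor Slc26a4 without Nkx replicate 3 or Double replicate 3. Slc26a4 also did not pass with a sex covariate or between female libraries alone (1.27). Itln1, an intestinal lectin, varied from 10.28 to 16.82 among Double and from 7.33 to 12.18 among Nkx libraries, and the groups overlapped. Its rise of 5.47 ± 1.67 (adjusted p = 0.0369) did not pass without any 1 of Nkx replicates 2 and 3 or Double replicates 1, 3 and 4 (adjusted p = 0.0742 to 0.134). Nor did it pass with a sex covariate or between female libraries alone (4.79). The smallest p-values belonged to Ptprn2, a phosphatase-like membrane protein (2.86 ± 0.15, adjusted p = 7.66e-06), Pla2g4c, Phf24 (−2.76 ± 0.16), Ern2, an endoplasmic reticulum stress sensor of mucous cells (4.24 ± 0.25), and Scara3, a scavenger receptor (3.79 ± 0.23).

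Among the largest decreases, Acoxl, an acyl-CoA oxidase-like gene of the AT2 list (ENSMUSG00000027380; GRCm38 chromosome 2, 127838876 to 128123873, plus strand), stood at 8.21, 8.95, 9.78 and 8.84 in Double libraries, against 13.16, 13.03 and 12.96 in Nkx libraries. It fell by 4.10 ± 0.28 on the log2 scale, to 0.0581 times its Nkx level (adjusted p = 1.23e-05). Igfbp2, a binding protein of insulin-like growth factors made by AT1 cells, stood at 7.63, 8.82, 9.02 and 7.53 in Double libraries, against 11.68, 12.86 and 13.71 in Nkx libraries, and fell by 4.50 ± 0.62 (adjusted p = 0.000641). Cst8 (−4.34 ± 0.58), Gpm6a (−4.32 ± 0.43), Hes2 (−3.83 ± 0.42), the cytokine receptor gene Cntfr (−3.77 ± 0.43) and Fxyd1, a regulator of the sodium pump (−3.66 ± 0.73), fell too. Ogn (−3.88 ± 0.46), Inmt (−3.69 ± 0.35) and Crispld2 (−3.74 ± 0.38) also fell; Ogn, a matrix proteoglycan, and Inmt, a methyltransferase of stroma, are members of the mesenchymal list.

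Genes of 2 cell types outside the gate were lower in Double. Of 28 endothelial genes 26 fell and 0 rose, with a median log2 fold change of −2.42, and their summed level (log2) was 13.05 to 14.23 in Double and 15.36 to 16.43 in Nkx libraries. Pecam1, the gene of CD31, stood at 9.40, 10.85, 9.27 and 10.13 in Double libraries, against 12.87, 12.38 and 11.78 in Nkx libraries. It fell by 2.43 ± 0.40 (adjusted p = 0.00175) and was measured in all 7 libraries although the gate was CD31−. The junction gene Cdh5 (−2.62 ± 0.38), the VEGF receptor gene Kdr (−2.23 ± 0.30) and Lyve1, a hyaluronan receptor (−3.51 ± 0.68), fell with it. Of 35 mesenchymal and matrix genes 19 fell and 1 rose, with a median of −1.54 and a summed level of 15.56 to 15.90 in Double and 16.70 to 16.81 in Nkx libraries. Tcf21, a fibroblast transcription factor (−3.53 ± 0.31), the proteoglycan gene Dcn (−3.29 ± 0.41), Pdgfra (−2.96 ± 0.35), Col3a1 (−2.09 ± 0.39), Col1a2 (−1.89 ± 0.44) and Col1a1 (−1.79 ± 0.42) fell. Col1a1 did not pass without Nkx replicate 1 (−1.60, adjusted p = 0.0524), and Fn1, a matrix gene that epithelial cells also make, was the 1 that rose (1.65 ± 0.23, named after its values were seen); without WT replicate 2 or 3 or Double replicate 3 or 4, 2 rose. None of the 7 markers of these types was at a library's lowest value.

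Epcam, the gate's own antigen, stood at 13.81, 13.76, 13.58 and 13.80 in Double libraries, against 13.08, 13.24 and 13.29 in Nkx libraries, and rose by 0.54 ± 0.10 (adjusted p = 0.00364). Cdh1, the epithelial cadherin, differed by 0.47 ± 0.17 (adjusted p = 0.0704). Of 30 leukocyte genes 2 rose and 1 fell (10% passed, beside 21.7% of all genes), with a median of 0.59. Their mean level was 6.45 to 8.86 in Double and 6.16 to 7.76 in Nkx libraries and was highest in Double replicate 2. The macrophage genes Cd68 (1.5 ± 0.34) and Mpeg1 (1.51 ± 0.32) rose and Csf1r, the receptor of a macrophage growth factor, fell (−1.41 ± 0.19). Between female libraries alone Cd68 (1.31, adjusted p = 0.0795) and Mpeg1 (1.2, adjusted p = 0.0565) did not pass. The defining markers Ptprc, the gene of CD45 (0.19 ± 0.60), Cd53 (1.09 ± 0.84), Tyrobp (1.95 ± 0.89) and Adgre1 (0.39 ± 0.65) did not pass. Without Double replicate 3, Cd53 (1.925, adjusted p = 0.0423) and Tyrobp (2.61, adjusted p = 0.0433) passed, and Tyrobp also passed with a replicate block. Ptprc and Adgre1 did not pass in any of the 24 alternative fits.

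**Figure D2:**
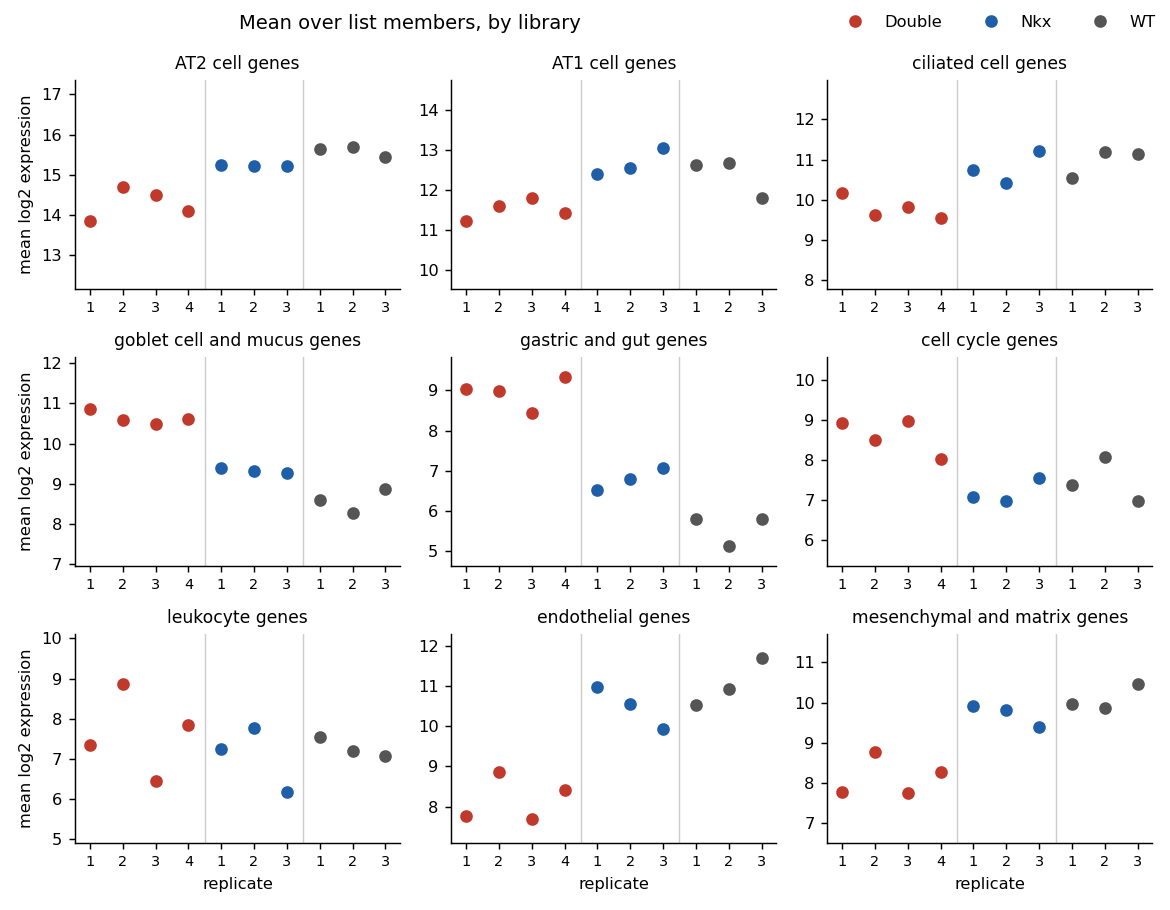
Mean log2 expression over the members of 9 gene lists (y axis, the same span in each panel) in each 6-month library (x axis, replicate within Double, Nkx and WT). The 4 Double libraries lie below the 3 Nkx libraries for AT2, AT1, ciliated, endothelial and mesenchymal genes, above them for goblet, gastric and gut and cell cycle genes, and overlap them for leukocyte genes.

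AT2 cells make surfactant and store it in lamellar bodies. Of 39 AT2 genes 18 fell, 2 rose and 19 did not pass, beside 11.5% and 10.2% of all genes, and the median was −0.84. Napsa (ENSMUSG00000002204; GRCm38 chromosome 7, 44572380 to 44586862, plus strand) stood at 12.98, 14.04, 13.74 and 13.02 in Double libraries, against 15.71, 15.77 and 15.66 in Nkx libraries. The Nkx libraries lay close together and above all Double libraries, a difference of −2.27 ± 0.24 (adjusted p = 0.000156). Lamp3, a lysosomal and lamellar body membrane protein, stood at 14.21, 15.66, 15.46 and 14.60 in Double libraries, against 16.72, 16.98 and 16.72 in Nkx libraries (−1.83 ± 0.31, adjusted p = 0.00218). Also lower were Slc34a2, the phosphate transporter of AT2 cells (−1.47 ± 0.30), Etv5, a transcription factor downstream of FGF signalling (−1.60 ± 0.35), and Lpcat1, an enzyme of surfactant phospholipid synthesis (−1.56 ± 0.31).

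The surfactant protein genes had some of the highest values of each library, where a difference is one of rank. Sftpc was the highest gene, at 21.19, in each Nkx library and in Double replicate 2; in the other Double libraries it stood at 18.64, 19.74 and 20.24, and its difference of −1.24 ± 0.81 did not pass (adjusted p = 0.309). Sftpa1, a lung collectin, stood at 17.27, 18.25, 18.08 and 17.01 in Double libraries, against 19.26, 19.26 and 19.04 in Nkx libraries. The groups did not overlap (−1.53 ± 0.42, adjusted p = 0.0225), but the call did not hold without any 1 of the 3 Nkx replicates or Double replicates 1 and 4 (adjusted p = 0.0576 to 0.0852). Nor did it hold with a sex covariate or between female libraries alone (−1.605). Sftpb (−0.63 ± 0.34), the lipid transporter gene Abca3 (−0.68 ± 0.26) and the lysozyme gene Lyz2 (−0.48 ± 0.54) did not pass. The 2 AT2 list members that rose were Muc1 (0.97 ± 0.18), a membrane mucin also in the goblet list, and Rab27a, a secretory vesicle GTPase (0.59 ± 0.19), which did not pass without Nkx replicate 1, Nkx replicate 2, Double replicate 1, Double replicate 3 or WT replicate 2 (adjusted p = 0.0567 to 0.163); both were named after their values were seen. Of 18 surfactant and lamellar body genes, 10 of them also in the AT2 list, 6 fell and 2 rose. Between female libraries 11 AT2 genes fell.

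AT1 cells are the thin gas-exchange cells of the alveolus. Of 37 AT1 genes 19 fell, 3 rose and 15 did not pass, with a median of −0.80. Ager stood at 13.65, 15.27, 15.05 and 13.62 in Double libraries, against 16.31, 16.42 and 17.07 in Nkx libraries (−2.20 ± 0.43, adjusted p = 0.00415). Hopx, a homeodomain cofactor, stood at 11.90, 11.89, 12.07 and 11.79 in Double libraries, against 13.17, 13.70 and 14.25 in Nkx libraries (−1.79 ± 0.28, adjusted p = 0.00139). For both genes the Double libraries lay below every Nkx library. Rtkn2 (−3.79 ± 0.65), Spock2, a matrix proteoglycan (−3.31 ± 0.46), and the neurotrophin gene Bdnf (−3.38 ± 0.60) fell further.

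Not every AT1 gene passed. The water channel gene Aqp5 differed by −0.02 ± 0.18 (adjusted p = 0.943) and Clic5 by −0.17 ± 0.20 (adjusted p = 0.587), with overlapping groups. Cldn18, the alveolar claudin, differed by −0.61 ± 0.20 (adjusted p = 0.0524), and each Double library lay below each Nkx library. Cldn18 passed in 9 of the 24 alternative fits. Pdpn fell by 1.31 ± 0.36 (adjusted p = 0.0239) but did not pass without Nkx replicate 2, Nkx replicate 3 or Double replicate 4 (adjusted p = 0.0563 to 0.0958). The 3 list members that rose were the keratin gene Krt7 (1.36 ± 0.22), the calcium-binding protein gene S100a6 (1.69 ± 0.38) and the tetraspanin gene Tspan8 (1.11 ± 0.29), the last 2 named after their values were seen; Tspan8 did not pass without Nkx replicate 1 or 2 (adjusted p = 0.078 and 0.0618). The endothelial and mesenchymal lists moved in the same libraries as the AT1 list, and their part in its change was not tested.

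NKX2-1 binds a core motif, CAAGTG, and windows of 300 bases around gene starts (250 before to 50 after; RefSeq, GRCm38.p6) were searched for these letters on both strands. The motif was in 12.1% of the windows of genes that fell, 10.9% of genes that rose and 11.6% of all genes tested. An AP-1 motif, TGANTCA, was in 6.12% of windows of genes that fell, 7.82% of genes that rose and 5.55% of all, and an HNF4 motif, CAAAGTCCA, in 0.231%, 0.367% and 0.38%. The 3 windows shown hold CAAGTG or its reverse complement (in capitals) and belong to a gene each of the AT2, AT1 and gut lists that passed in Double; a match is a description of the letters and not a bound site. They are Sftpa1 at chr14:41131538-41131837 (plus strand), Hopx at chr5:77095218-77095517 (minus strand) and Guca2a at chr4:119637482-119637781 (plus strand), each 5′ to 3′ on the strand of its gene.
Sftpa1: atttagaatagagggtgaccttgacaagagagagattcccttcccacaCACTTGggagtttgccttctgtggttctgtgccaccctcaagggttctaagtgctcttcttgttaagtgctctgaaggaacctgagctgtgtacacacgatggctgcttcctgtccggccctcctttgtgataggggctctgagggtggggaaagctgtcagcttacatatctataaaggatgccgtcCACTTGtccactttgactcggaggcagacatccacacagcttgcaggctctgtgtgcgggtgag
Hopx: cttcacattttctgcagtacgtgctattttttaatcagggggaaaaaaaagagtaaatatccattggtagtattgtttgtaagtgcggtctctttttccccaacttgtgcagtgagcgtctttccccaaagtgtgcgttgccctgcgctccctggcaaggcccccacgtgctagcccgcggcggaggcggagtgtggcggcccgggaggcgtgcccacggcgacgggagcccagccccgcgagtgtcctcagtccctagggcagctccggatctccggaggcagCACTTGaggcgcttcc
Guca2a: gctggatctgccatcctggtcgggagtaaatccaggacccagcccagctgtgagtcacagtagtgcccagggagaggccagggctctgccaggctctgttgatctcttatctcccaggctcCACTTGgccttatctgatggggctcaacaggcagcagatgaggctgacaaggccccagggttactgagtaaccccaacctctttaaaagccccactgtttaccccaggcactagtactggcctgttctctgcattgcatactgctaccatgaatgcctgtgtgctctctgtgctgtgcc

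Genes of secretory (club) cells, the airway cells that make secretoglobins, went both ways: 5 of 33 rose and 7 fell, with a median of 0.05. Of these 33, 36.4% passed, beside 21.7% of all genes. Scgb3a2, a secretoglobin and known target of NKX2-1, stood at 14.35, 14.47, 14.22 and 14.45 in Double libraries, against 16.61, 16.82 and 16.07 in Nkx libraries. It fell by 2.13 ± 0.34 (adjusted p = 0.00136), while WT libraries stood at 14.49, 13.85 and 15.63, so Nkx was the highest group. Scgb1a1 was the highest or joint highest gene, at 21.19, in Double replicates 1, 3 and 4, against 20.24 in each Nkx library, and its difference of 0.59 ± 0.71 did not pass (adjusted p = 0.596). The antimicrobial gene Bpifa1 (−3.77 ± 1.0) and Pon1, a lactonase (−3.22 ± 0.31), fell, and Bpifa1 did not pass without Nkx replicate 1 or 2 (adjusted p = 0.0756 and 0.065). Retnla, a resistin-like secreted protein, stood at 20.24, 19.04, 20.24 and 17.83 in Double libraries, against 15.07, 15.80 and 14.71 in Nkx libraries, and rose by 4.15 ± 0.66 (adjusted p = 0.00148). Cyp2f2, a club cell cytochrome P450 (0.92 ± 0.42), and the carbonyl reductase gene Cbr2 (0.11 ± 0.34) did not pass. Without any 1 of WT replicate 1, Nkx replicates 1 and 2 or Double replicates 1 and 4, 3 secretory genes rose, and without Nkx replicate 1, 3 fell.

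Ciliated cell genes fell as a group: 33 of 43 passed downward, 0 passed upward, and the median was −1.11. Foxj1, the transcription factor of motile cilia, stood at 12.54, 11.76, 12.06 and 12.01 in Double libraries, against 12.99, 12.79 and 13.65 in Nkx libraries. Each Double library lay below each Nkx library (−1.05 ± 0.22, adjusted p = 0.00648). Sntn, a protein of the ciliary tip (−1.86 ± 0.29), Ccdc153 (−1.59 ± 0.33) and Rsph1, a radial spoke protein (−1.27 ± 0.25), fell, and so did Tppp3 (−0.99 ± 0.25), which did not pass without Nkx replicate 3 (−0.70, adjusted p = 0.065). Nkx replicate 3, the library of male pattern, had the highest mean of this list (11.22, against 10.73 and 10.42 in Nkx replicates 1 and 2), and between female libraries 21 members fell. Of 16 neuroendocrine genes 1 passed (6.25%, beside 21.7% of all genes). It was Uchl1, which fell (−1.74 ± 0.56, adjusted p = 0.0464, named after its values were seen). Uchl1 did not pass in 8 of the 10 fits that each left out 1 library. These were the fits without any 1 of the WT or Nkx replicates or Double replicates 2 and 4 (adjusted p = 0.053 to 0.17). The neuropeptide gene Calca (−1.28 ± 0.56) did not pass.

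**Figure D3:**
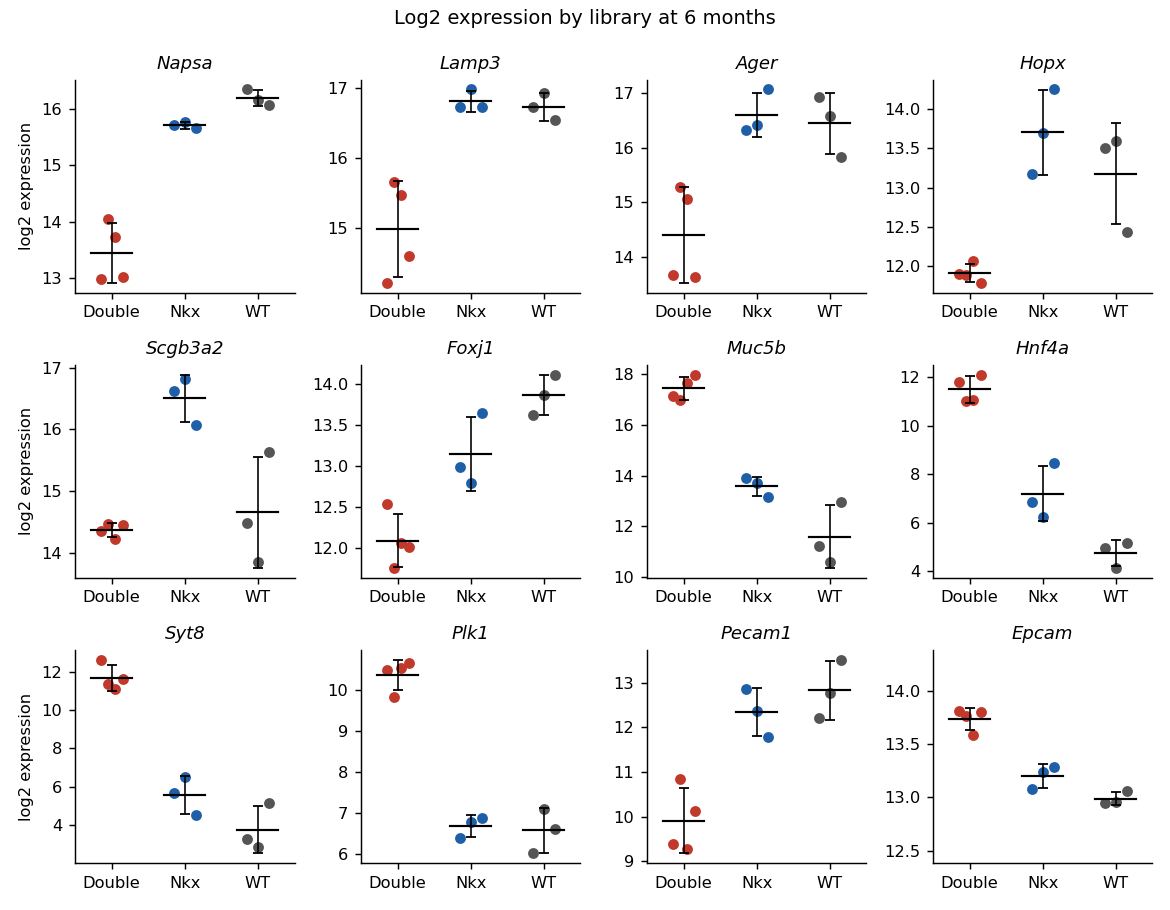
Log2 expression (y axis, a range of its own in each panel) of 12 genes in Double, Nkx and WT libraries at 6 months; points are libraries, bars the mean and whiskers the SD. Double libraries lie below the Nkx libraries for Napsa, Lamp3, Ager, Hopx, Scgb3a2, Foxj1 and Pecam1 and above them for Muc5b, Hnf4a, Syt8, Plk1 and Epcam.

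Goblet cells secrete mucus. Of 40 measured goblet and mucus genes (46 in the list) 22 rose, 1 fell and 17 did not pass, with a median of 1.0. Muc5b stood at 17.17, 17.01, 17.66 and 17.997 in Double libraries, against 13.89, 13.71 and 13.17 in Nkx libraries and 11.22, 10.58 and 12.97 in WT libraries; it rose by 3.87 ± 0.46 against Nkx (adjusted p = 0.000311). Muc5ac, the gastric and airway mucin, stood at 12.33, 12.06, 12.81 and 12.39 in Double libraries, against 9.13, 9.27 and 8.98 in Nkx libraries (3.27 ± 0.31, adjusted p = 9.17e-05). Double libraries lay above all Nkx libraries for both. Agr2, a disulfide isomerase needed for mucin folding, rose by 4.52 ± 0.46, Tff3, a trefoil peptide, by 3.88 ± 0.70 (1 Nkx library at its lowest value), and the goblet transcription factors Foxa3 by 1.92 ± 0.43 and Spdef by 0.98 ± 0.20. The 1 that fell was Agr3 (−2.13 ± 0.38, named after its values were seen), a relative of Agr2 that is also made by ciliated cells; without WT replicate 3 or Nkx replicate 3, 2 fell.

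Stomach and gut genes rose among those measured: 20 of 41 passed upward and 2 downward, with a median of 1.92. The list held 62 genes, and how genes were chosen for the deposited values is not stated. Of the 41, 7 were at the lowest value in some Nkx library and 0 in any Double library. A gene silent in Nkx could be present only because Double expressed it, which would tilt the share and the median upward. Hnf4a (ENSMUSG00000017950; GRCm38 chromosome 2, 163506808 to 163572910, plus strand) stood at 11.83, 11.01, 11.05 and 12.12 in Double libraries, against 6.88, 6.25 and 8.45 in Nkx libraries and 4.95, 4.13 and 5.15 in WT libraries. The Double libraries were all higher than the Nkx libraries, by 4.31 ± 0.48 (adjusted p = 0.000206). Gif stood at 9.88, 11.75, 12.71 and 12.31 in Double libraries, against 6.15, 6.66 and 6.46 in Nkx libraries (adjusted p = 0.000172). Ctse, a gastric aspartic protease, rose by 3.68 ± 0.50, and Guca2a, a gut peptide that activates guanylate cyclase, by 5.02 ± 0.69 (2 of 3 Nkx libraries at their lowest value). The 2 members that fell were the gastrokine gene Gkn3 (−2.05 ± 0.37) and the lectin gene Reg3g (−1.30 ± 0.39), both named after their values were seen; Reg3g did not pass without Nkx replicate 1 or 2 or Double replicate 1 or 3 (adjusted p = 0.0635 to 0.15). Of 27 endoderm and gut transcription factors 10 rose and 5 fell, with Bhlha15, a factor of secretory cells, rising by 1.67 ± 0.30; without Nkx replicate 1 or Nkx replicate 3, 2 of these factors fell.

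Liver-type plasma protein genes went mostly up, with 14 of 39 measured members (53 in the list) rising and 4 falling. The limit given for stomach and gut genes applies here as well. Apob, the protein of very-low-density lipoprotein, stood at 12.03, 12.25, 13.12 and 13.79 in Double libraries, against 8.33, 9.95 and 9.05 in Nkx libraries (3.68 ± 0.48, adjusted p = 0.000504). All Double libraries were higher. The complement factor gene Cfi rose by 3.75 ± 0.35 and F2, the gene of prothrombin, by 2.68 ± 0.44. Without Nkx replicate 1, 8 members rose and 2 fell, without Nkx replicate 2, 2 fell, without Nkx replicate 3, 9 rose, and without Double replicate 2, 7 fell. Among antimicrobial and lectin genes 9 of 27 rose and 3 fell, and Retnlb, a resistin-like gut goblet protein, was at 8.71, 8.08, 8.57 and 4.94 in Double libraries, against 3.07, 2.34 and 2.1 in Nkx libraries, 2 of which were at their lowest value. It rose by 5.07 ± 0.89 (adjusted p = 0.00238). Without Nkx replicate 1, Nkx replicate 3, Double replicate 1 or Double replicate 4, 5 antimicrobial and lectin genes rose, and without Nkx replicate 1 or 2, 1 fell.

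Of 22 measured basal and squamous genes (30 in the list) 9 rose and 1, Pdpn, fell (2 without WT replicate 3), with a median of 1.30. The limit given for stomach and gut genes applies here too. Krt4, a keratin of stratified mucosa, stood at 10.74, 8.50, 9.11 and 9.84 in Double libraries, against 5.42, 4.55 and 4.94 in Nkx libraries (4.58 ± 0.73, adjusted p = 0.00144). Pkp1, a desmosomal plakophilin, rose by 2.38 ± 0.52 and Trp63, the transcription factor of basal cells, by 1.76 ± 0.45 (adjusted p = 0.0175), though Trp63 did not pass without Nkx replicate 2 (1.5, adjusted p = 0.0737). Pkp1 did not pass with a replicate block over Double and Nkx replicates 1 to 3 (limma adjusted p = 0.0501). Ly6d rose by 4.05 ± 1.05 with overlapping groups and did not pass without Nkx replicate 1 or 3 (adjusted p = 0.0694 and 0.068). Of the 7 keratins in the list, Krt4 was the 1 that passed; of the other 6, 4 lay above 0 and 2 below. The basal keratins Krt5 (0.31 ± 0.93) and Krt14 (1.63 ± 1.04) were among the 6, and Double replicate 1 was the highest of the 7 libraries for both.

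Of 36 genes of p53 targets and of the Krt8 transitional state, a state between AT2 and AT1 cells seen in lung repair, 16 rose and 3 fell, with a median of 0.52. Clu, a secreted chaperone, stood at 19.74, 18.64, 18.64 and 19.74 in Double libraries, against 14.97, 15.21 and 15.14 in Nkx libraries (4.08 ± 0.38, adjusted p = 8.4e-05). Tnip3, an inhibitor of NF-κB signalling, rose by 3.79 ± 0.26, Itgb6, an epithelial integrin that activates TGF-beta, by 1.69 ± 0.29, and Krt19 by 1.55 ± 0.21. Of 33 tight junction and keratin genes 13 rose and 2 fell (4 fell without WT replicate 3). Cldn2, a pore-forming claudin of leaky epithelia, stood at 9.86, 9.87, 9.87 and 10.26 in Double libraries, against 7.42, 7.53 and 7.68 in Nkx libraries (2.42 ± 0.20, adjusted p = 4.56e-05). The endothelial claudin gene Cldn5 fell by 2.69 ± 0.32.

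Cell cycle genes rose together, 35 of 50 with 0 falling and a median of 1.56. Plk1, a mitotic kinase, stood at 10.48, 9.84, 10.53 and 10.66 in Double libraries, against 6.38, 6.79 and 6.87 in Nkx libraries. It rose 13-fold (3.70 ± 0.29, adjusted p = 2.18e-05). Plk1 ends at 122169873 on GRCm38 chromosome 7, close to Ern2, which lies on the other strand from 122169893. Ern2 rose by 4.24 ± 0.25, and the strand setting is unknown. Whether reads of Ern2 were counted at Plk1 was not tested, so the size of the Plk1 rise is uncertain. Mki67, the gene of Ki-67, stood at 10.68, 10.37, 10.84 and 9.58 in Double libraries, against 7.86, 6.14 and 8.59 in Nkx libraries and 8.10, 9.71 and 7.08 in WT libraries. Double libraries lay above all Nkx libraries, but Double replicate 4 lay below WT replicate 2 (2.84 ± 0.63 against Nkx, adjusted p = 0.00846). Top2a, a topoisomerase of dividing cells, rose by 2.15 ± 0.50 and E2f8, an S-phase transcription factor, by 2.11 ± 0.51, which did not pass between female libraries alone (2.13, adjusted p = 0.0532). Without Nkx replicate 1, 20 cell cycle genes rose and without Nkx replicate 2, 21 rose; without Double replicate 3, 1 fell.

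**Figure D4:**
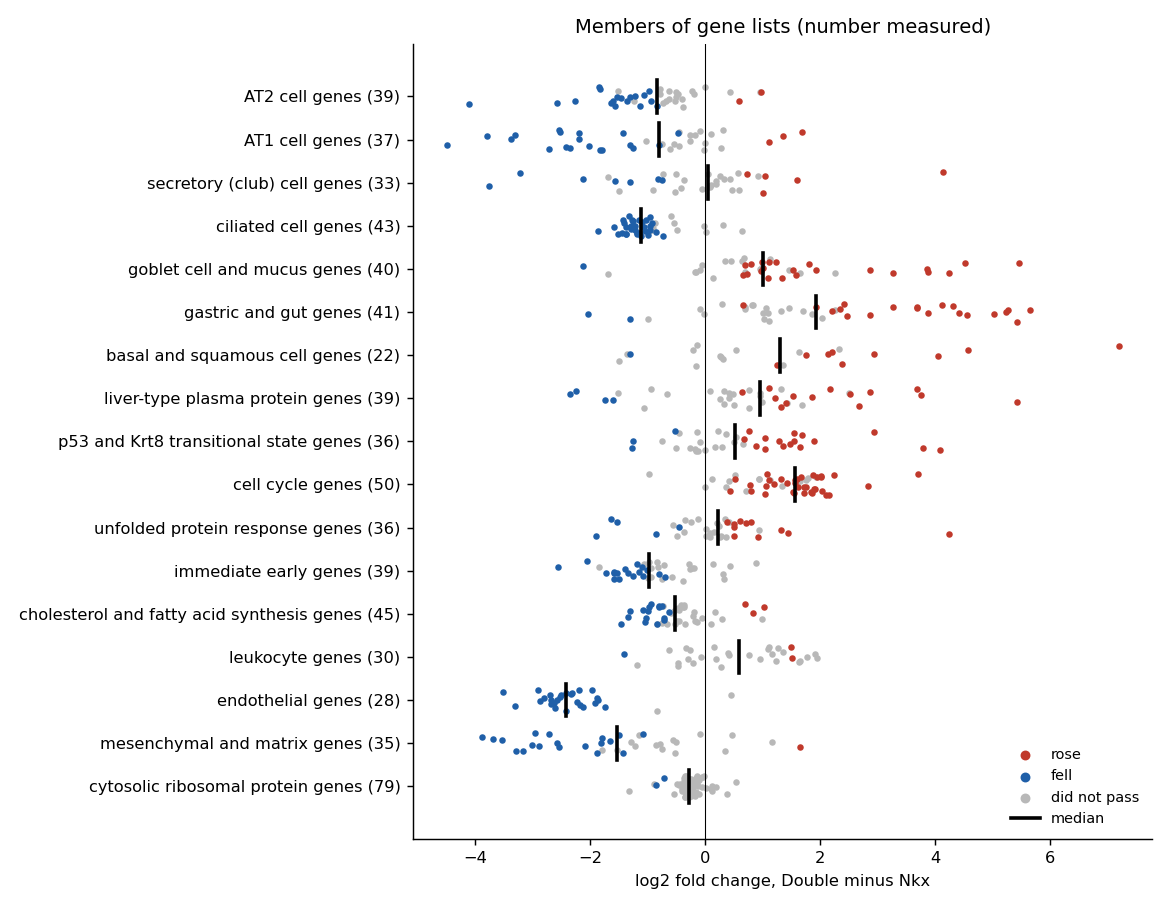
Log2 fold change of Double minus Nkx (x axis) for the measured members of 17 gene lists (rows, with the number measured); red members rose, blue members fell, grey members did not pass, and the bar is the median. Medians run from −2.42 for endothelial genes to 1.92 for gastric and gut genes.

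Among transcription factors of lung epithelium 7 of 42 rose and 12 fell, with a median of −0.03. Mycn, a factor of progenitor growth, stood at 8.29, 7.51, 7.16 and 8.88 in Double libraries, against 4.73, 5.35 and 4.73 in Nkx libraries (3.02 ± 0.54, adjusted p = 0.00263). The T-box genes Tbx3 (−2.52 ± 0.40), Tbx4 (−2.33 ± 0.35) and Tbx5 (−2.70 ± 0.65), which are known for their role in lung mesenchyme, fell, and Tbx5 did not pass without Nkx replicate 1 (adjusted p = 0.0532). Mesenchymal genes were lower in the same libraries, and their part in the T-box change was not tested.

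Of 36 FGF, EGF and related ligand and receptor genes, a list that held Shh, 4 rose and 11 fell. Shh, the epithelial hedgehog ligand, stood at 12.94, 12.36, 12.70 and 12.58 in Double libraries, against 10.77, 10.30 and 10.52 in Nkx libraries (2.12 ± 0.16, adjusted p = 1.93e-05). The mesenchymal ligand gene Fgf10 (−2.69 ± 0.51, 1 Double library at its lowest value) and the receptor gene Fgfr4 (−3.12 ± 0.46) fell; Fgf10 did not pass between female libraries alone (−2.68, adjusted p = 0.0528). Of 36 Wnt pathway genes 5 rose and 10 fell: the receptor gene Lgr5, a marker of gut stem cells, rose by 2.31 ± 0.43 and the ligand gene Wnt3a fell by 3.20 ± 0.61. Without Nkx replicate 1, 3 Wnt genes rose and 5 fell, without Nkx replicate 2, 2 rose and 5 fell, and without Nkx replicate 3, 6 fell. Of 23 Notch genes 3 rose and 7 fell, with the target gene Hey1 at −2.57 ± 0.31; the shares that rose in these 3 lists lay near the 10.2% of all genes. Without Nkx replicate 2 or 3, 1 Notch gene rose. Hey1, Fgf10 and other members are also made by endothelial or mesenchymal cells, whose lists were lower in Double, and that part was not tested.

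Lipid synthesis genes fell in part, 16 of 45 with 3 rising and a median of −0.53. Without Nkx replicate 2, Nkx replicate 3 or Double replicate 1, 8 of these genes fell, and without Double replicate 4, 10 fell. Of 36 unfolded protein response genes 11 rose, Ern2 among them, and 5 fell, among them the pseudokinase gene Trib3 (−1.64 ± 0.36); without Nkx replicate 3, 7 rose and 3 fell. Immediate early genes, which cells switch on within minutes of stress or dissociation, fell: 18 of 39, with 0 rising (1 without Double replicate 2) and a median of −0.98. Fosb, an AP-1 subunit, stood at 10.50, 12.02, 11.79 and 12.40 in Double libraries, against 13.47, 13.70 and 14.06 in Nkx libraries (−2.06 ± 0.41, adjusted p = 0.00474). Handling of the cells is not recorded per library in the labels, and its part was not tested.

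Other immune and metabolic genes moved singly. None of 21 MHC class II and antigen presentation genes passed in limma, and 4 had an unadjusted p under 0.05. Of 40 interferon-response genes 4 rose and 4 fell, near the shares of all genes (10.2% rose and 11.5% fell). Mx1, an antiviral GTPase, rose by 2.51 ± 0.56 and Oas2, an antiviral oligoadenylate synthetase, by 2.02 ± 0.47, while Usp18, which removes the ubiquitin-like protein ISG15, fell by 1.11 ± 0.17. Oas2 did not pass with a replicate block over all 10 libraries (limma adjusted p = 0.0506). Among 31 cytokine and prostaglandin genes Il18, an epithelial cytokine, rose by 2.35 ± 0.39 and Hpgd, which breaks down prostaglandins, fell by 2.20 ± 0.25. Cyp1a1, the cytochrome P450 induced by the aryl hydrocarbon receptor, stood at 3.81, 4.01, 4.09 and 4.17 in Double libraries, against 7.72, 6.91 and 7.21 in Nkx libraries (−3.26 ± 0.33, adjusted p = 0.000133). Of 79 cytosolic ribosomal protein genes 0 rose and 2 fell.

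The same genotypes were also compared at E18.5, just before birth, in 3 Double and 3 Nkx libraries enriched for EpCAM on magnetic beads and normalized separately. There 1 of 13750 genes passed (0.00727%), while 559 had an unadjusted p under 0.05. The gene was Mucl3, a mucin-like gene, named after its values were seen, at 10.95, 11.83 and 11.69 in Double libraries, against 9.21, 9.68 and 9.05 in Nkx libraries (2.18 ± 0.24, adjusted p = 0.0127). At 6 months Mucl3 stood at 10.65, 9.21, 10.67 and 11.86 in Double libraries, against 7.94, 8.38 and 7.85 in Nkx libraries (2.54 ± 0.46, adjusted p = 0.00271). In E18.5 libraries it no longer passed without Nkx replicate 1, Nkx replicate 3, Double replicate 2 or Double replicate 3, when 0 genes passed in limma and 432 to 529 had an unadjusted p under 0.05.

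Several genes were higher in Double at E18.5 too without passing there. Syt8 stood at 8.56, 9.89 and 9.57 in Double libraries, against 6.11, 5.45 and 5.63 in Nkx libraries (3.61 ± 0.56, adjusted p = 0.117), Ern2 differed by 1.38 ± 0.46 and Muc5ac by 1.23 ± 0.51. Others were near 0 there, among them Prg4 (0.12 ± 0.64), Napsa (−0.19 ± 0.26), Hopx (−0.06 ± 0.19) and Nkx2-1 (−0.01 ± 0.14). Of 1428 genes that rose at 6 months and were measured at E18.5, 70.4% lay above 0 at E18.5, with a median of 0.12. Of 1497 that fell, 73.1% lay below 0, with a median of −0.17, and of all 13034 genes of both ages 49.8% lay above 0. An unadjusted limma p under 0.05 at E18.5 in the same direction was reached by 129 of the 1428 and 92 of the 1497. Over all 13034 genes it was reached by 412. The shares were not tested. The medians at E18.5 were −0.36 for AT2, −0.40 for ciliated, 0.08 for goblet, −0.15 for gastric and gut and 0.42 for cell cycle genes. Measured members were 24 for gastric and gut genes, against 41 at 6 months. They were 35 against 40 for goblet and 38 against 39 for AT2 genes. The medians of these lists at the 2 ages are therefore not over the same genes. The difference between the ages was not tested.

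**Figure D5:**
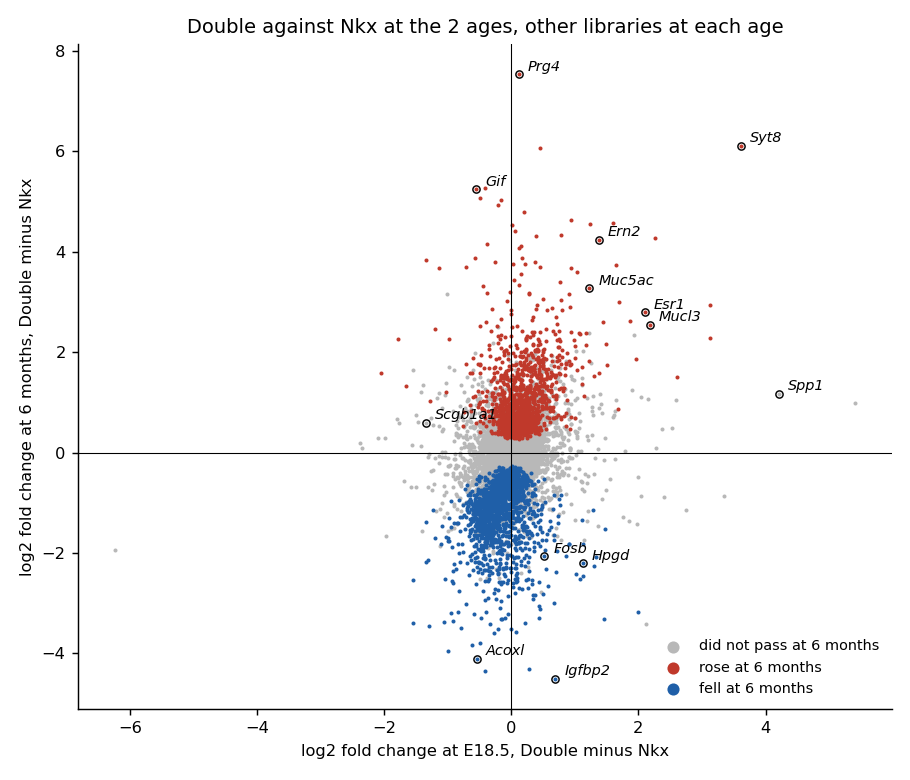
Log2 fold change of Double minus Nkx at 6 months (y axis) by that at E18.5 (x axis) for 13034 genes measured at both ages, from separate libraries and separate fits; red genes rose and blue genes fell at 6 months. Mucl3 and Syt8 lie to the right and above 0, while Prg4 lies near 0 at E18.5 and at 7.53 at 6 months.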

How the data were processed

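RNA of mouse lung epithelium was sequenced in 22 libraries. The authors deposited log2 expression per gene for each library, and the submitters' processing notes name STAR, limma and the build mm9. Normalization is not stated; from the values, libraries of an age were quantile-normalized (median SD of 0.0024 between 6-month libraries at equal rank), so composition shifts are spread over all genes. Symbols and coordinates came from GENCODE M21 (GRCm38) by gene ID, for 15353 of 15958 genes (96.2%). No source gives read totals or a strand setting, so no depth per library or counting error could be derived, and overlapping and antisense genes cannot be told apart.

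Double and Nkx were compared with limma 3.58.1 in R 4.3.3 on the deposited log2 values, fitted over the 10 libraries of 6 months with group as the sole factor; moderation allowed a trend with the mean. Adjustment followed Benjamini and Hochberg over all 15958 genes, at a threshold of 0.05; "rose", "fell" and "passed" refer to it. No further filter or pseudocount was used. The deposited values covered 15958 genes at 6 months and 13750 at E18.5, and how these genes were chosen is not stated. E18.5 was fitted separately over 12 libraries. The fit was tested on simulated data. Tables and plots used Python 3.11.15, pandas 2.3.3 and matplotlib 3.10.9.

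Named genes are Nkx2-1 and its locus, the 12 largest changes each way, the 5 smallest p-values and cell type markers. The rule also took the 2 members with the highest mean of the AT2, AT1, secretory and ciliated lists. From each list it took the 5 largest changes at most among members that passed. Esr1, Muc1, S100a6, Agr3, Gkn3, Rab27a, Tspan8, Reg3g, Fn1, Uchl1 and Mucl3 lie outside that rule and were named after their values were seen. The comparison, lists and rule were chosen with earlier results of these data known. Same-numbered Double and Nkx libraries deviated together at E18.5 (correlations of 0.298, 0.504 and 0.181) but not at 6 months (−0.055, 0.085 and −0.07). The labels state no pairing, and at E18.5 same-numbered Double and Nkx libraries also shared their sex pattern. Whether replicate numbers pair libraries is therefore not settled. At E18.5 a replicate block left the count at 1. Some genes the rule names are not reported here. Members of repeated families (Sprr2a3, Chil4, Retnla, Retnlb, Lyz2) may share reads with their copies. The alternatives were other scalings, filters, covariates, moderation, a replicate block and leaving out each library.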

Additional observations from a re-analysis of the deposited data

Results flagged for a closer look

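Within the 4 Double libraries, 1 library stood apart from the other 3 (Dixon's test) for 10 of the 155 genes tested, and chance marks about 1 in 20 groups. Double replicate 2 was lowest for Ptprn2 (10.93), Scgb1a1 (19.74) and Bhlha15 (8.99) and highest for the macrophage gene Cd68 (11.06) and Lyz2 (20.24). In the other 3 Scgb1a1 was at 21.19, the highest value of each library. The flags of Scgb1a1 and Lyz2 thus rest on steps of rank among the highest values. Double replicate 1 was lowest for Crispld2 (3.81) and Col4a3 (8.79) and highest for Sntn (9.57). Double replicate 4 was lowest for Retnlb (4.94) and highest for Cldn2 (10.25).

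For 4 of the genes named here and measured at both ages, the order of the groups was reversed between the ages. Every Double library lay on 1 side of every Nkx library at 6 months and on the other side at E18.5. The same count over all genes was not made, so whether 4 is more than chance gives is unknown. The difference between the ages was not tested. At E18.5 the log2 fold change was −0.56 for Gif, which rose at 6 months. It was 0.52 for Fosb, 1.12 for Hpgd and 0.91 for Lama4, which fell at 6 months.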

How the results depend on the processing

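Of 24 alternatives, the count of 3460 genes moved by over 1.5 times under 3 settings, and the cause was not tested. A replicate block over all 10 libraries gave 2285 genes (1027 rose and 1258 fell). Whether the 6-month numbers pair the libraries is not known. Female libraries alone gave 1998 (925 rose and 1073 fell), with fewer samples. Leaving out each library gave 2204 to 3492 genes, 1002 to 1643 of them rising and 1202 to 1849 falling, with the lowest counts without Nkx replicate 1. Of 134 genes of the text that passed, 112 passed in every alternative, 22 were lost in at least 1 and 0 turned sign. Where the groups do not overlap, leaving out a library cannot turn the sign. Among those lost between female libraries alone were Itln1, Slc26a4, Sftpa1, Pdpn, Ly6d, Col1a1, Tbx5, Tppp3 and Uchl1. Itln1, Slc26a4, Sftpa1, Uchl1 and Nkx2-9 were also lost with a sex covariate. Of 21 that did not pass, 6 passed in at least 1.

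Genes near 0 turned sign without passing in the fits named, and the cause was not tested. Aqp5 was at 0.046 under the replicate block, 0.12 with a sex covariate, 0.10 in female libraries, 0.020 with library weights and −0.13 to 0.10 over the fits leaving out a library. Cbr2 was at −0.061 under the block, −0.035 with a sex covariate and −0.061 to 0.20 over those fits. Krt5 was at −0.29 with a sex covariate and −0.20 to 0.75 leaving out a library. Clic5 was at 0.023 with a sex covariate, 0.011 in female libraries and −0.30 to 0.011 leaving out a library. Ptprc was at −0.12 in female libraries, −0.029 with library weights and −0.23 to 0.80 leaving out a library. Adgre1 was at −0.086 in female libraries and −0.086 to 1.002 leaving out a library. Mbip was at −0.041 to 0.23 leaving out a library.

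At E18.5, with alternatives chosen after seeing the data, 3 genes passed in Double and Nkx libraries alone, 1 with a sex covariate and 0 to 1 without each library. Of 1392 list counts recomputed, 1276 stayed within 1.5 times. Read depth is unknown, and the number of libraries limits the precision.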

Other observations

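Of 28 laminin and type IV collagen genes 11 fell and 3 rose in Double against Nkx, with a median of −0.46. Col4a3, a type IV collagen of the alveolar basement membrane made by AT1 cells, stood at 8.79, 9.86, 9.82 and 9.69 in Double libraries, against 11.58, 11.73 and 12.37 in Nkx libraries (−2.35 ± 0.35, adjusted p = 0.00088). The perlecan gene Hspg2 (−2.30 ± 0.30), Col4a2 (−2.01 ± 0.25) and the endothelial laminin gene Lama4 (−1.82 ± 0.29) fell too. The endothelial and mesenchymal lists were lower in the same libraries, and their part was not tested.

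Of 35 BMP and TGF-beta pathway genes 9 rose and 7 fell (45.7% passed, beside 21.7% of all genes). Bambi, a decoy receptor, stood at 9.60, 10.10, 9.75 and 9.81 in Double libraries, against 11.62, 11.75 and 11.88 in Nkx libraries (−1.94 ± 0.19, adjusted p = 0.000113). The ligand gene Bmp6 fell by 1.92 ± 0.37. Of 39 detoxification genes 6 rose and 8 fell (35.9% passed, beside 21.7% of all genes). Gsto1, a glutathione transferase, stood at 16.93, 15.96, 15.84 and 16.27 in Double libraries, against 13.75, 13.89 and 13.91 in Nkx libraries (2.40 ± 0.28, adjusted p = 0.000265). The aldo-keto reductase gene Akr1b8 rose by 1.55 ± 0.18 and the sulfotransferase gene Sult1d1 fell by 1.81 ± 0.30. Gpc3, an oncofetal proteoglycan, fell by 2.08 ± 0.30, while 8 of 28 progenitor and oncofetal genes rose and 2 fell. Without Nkx replicate 1 or 3, 5 detoxification genes fell, and without Nkx replicate 3 or Double replicate 1, 5 progenitor genes rose.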
